A study of Mus musculus with 20 samples.

Results

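The matrix metalloproteinases of connective tissue and their tissue inhibitors, the TIMPs, were followed in the femoral shaft of Hyp and normal mice through 9 genes: Mmp2, Mmp3, Mmp11, Mmp13, Mmp14, Mmp23, Timp1, Timp2 and Timp3. The array annotation gave 21 probe sets to these symbols, out of 45037 probe sets other than controls and 18193 named genes. All 21 were taken, whatever their signal. Detection calls left 19 probe sets of 8 genes for testing, each of them called present on 20 of 20 arrays. The probe set of Mmp3 and 1 of the 6 for Timp2 (1437081_at) were left out of the tests. The genes were grouped as stromal by name only, since RNA of the whole shaft does not show which cells made a transcript.

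Hyp is a deletion that takes away part of Phex, an X-linked gene for an endopeptidase on the surface of bone cells, and serves as a mouse model of X-linked hypophosphatemia. All mice were 5 weeks old and on the C57BL/6J background, fed one rodent diet from weaning. The 4 groups were normal (wild type) males, Hyp males (Hyp/Y, hemizygous), normal females and Hyp females (Hyp/+, heterozygous), with 5 arrays each. An array held RNA pooled from 2 mice of one sex and genotype, and the pools of one series came from littermates handled in parallel, with 1 array per group in each of 5 series. Same-sex arrays of a series formed 10 Hyp and normal pairs. The shafts had been flushed of marrow as far as possible but not sorted, so bone, vessel, muscle and remaining marrow cells were all measured. In bulk RNA of this kind, fewer cells of a type and less RNA per cell cannot be told apart.

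Matrix metalloproteinases are zinc enzymes, secreted or held in the cell membrane, that cut collagens and other matrix proteins. Most are made as inactive precursors, and TIMPs bind the active enzymes and block them. In bone they take part in the removal of unmineralized collagen, in the growth of marrow space and in fracture repair. Mmp13 is the main interstitial collagenase of mouse osteoblasts and hypertrophic chondrocytes, Mmp14 is a membrane-bound collagenase, and Mmp2 is gelatinase A, which Mmp14 activates with Timp2 as a partner on the cell surface.

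Signals are fluorescence units per probe set, and a probe set's level can be compared between arrays but not with the level of another probe set. Present calls covered 49.3% to 56.9% of the probe sets on an array, and the number of arrays limits the precision. Phex itself fell by 4.45 on the log2 scale in Hyp (limma adjusted p = 3.03e-10) and in 10 of 10 pairs, by a probe set whose position relative to the deletion was not looked up. Of the bone cell markers, 4 of 5 tested osteocyte genes fell in Hyp (Phex, Sost, Dmp1 and Pdpn), 1 of 5 osteoblast genes fell (Ifitm5), and 0 of 7 osteoclast genes passed the test. All 5 markers of osteoblasts and all 5 of osteocytes that were tested were detected on the arrays. The 3′ to 5′ signal ratio of the actin control probes, a measure of RNA integrity, was higher in Hyp by 0.14 ± 0.087 on the log2 scale (mean ± SD, 10 pairs), in 9 of 10 pairs (exact sign-flip test over pairs, 2-sided p = 0.00391). The same ratio of the Gapdh control probes differed by 0.062 ± 0.165 (SD). It was higher in Hyp in 8 of 10 pairs and did not pass the test (exact sign-flip test, 2-sided p = 0.258).

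The sequences upstream of the start sites are shown for Timp1 and Mmp23, the genes called below, and for Mmp13, whose promoter is known for the AP-1 and RUNX sites through which osteoblast signals act on it. They are the 250 bases before the RefSeq start on assembly GRCm38.p6, 5′ to 3′ on the gene's strand. Capitals mark the letters found for 4 short motifs searched on both strands: TGANTCA, bound by AP-1 factors, TGTGGT, bound by RUNX factors, GGGCGG, bound by SP1, and the TATA box letters TATAAA.
Timp1, chrX:20869916-20870165, plus strand: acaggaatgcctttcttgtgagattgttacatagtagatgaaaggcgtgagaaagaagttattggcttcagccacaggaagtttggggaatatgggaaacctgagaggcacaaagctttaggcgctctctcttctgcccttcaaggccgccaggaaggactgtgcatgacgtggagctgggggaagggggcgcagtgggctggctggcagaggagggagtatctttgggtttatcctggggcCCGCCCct
Mmp23, chr4:155653385-155653634, minus strand, the first of 2 starts: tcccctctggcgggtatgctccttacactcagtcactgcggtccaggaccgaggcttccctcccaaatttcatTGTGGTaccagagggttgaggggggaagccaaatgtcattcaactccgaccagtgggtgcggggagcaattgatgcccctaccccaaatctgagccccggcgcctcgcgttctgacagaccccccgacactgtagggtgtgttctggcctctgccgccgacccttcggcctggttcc
Mmp13, chr9:7272264-7272513, plus strand: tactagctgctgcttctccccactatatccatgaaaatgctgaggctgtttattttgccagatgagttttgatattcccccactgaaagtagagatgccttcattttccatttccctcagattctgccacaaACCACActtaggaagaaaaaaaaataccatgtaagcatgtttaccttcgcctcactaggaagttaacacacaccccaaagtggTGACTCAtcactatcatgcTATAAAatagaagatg
The Mmp13 stretch held AP-1 letters from -35 to -29, RUNX letters on the opposite strand from -118 to -113, and TATA letters from -16 to -11, counted from the start site. The Mmp23 stretch held RUNX letters from -177 to -172, and that of Timp1 held SP1 letters on the opposite strand from -8 to -3 and none of the other 3 motifs. Among 32851 mouse promoters of this length, 6.75% held the AP-1 letters, 14.05% the RUNX letters, 32.74% the SP1 letters and 12.37% the TATA letters. Of the members, Mmp3 and Mmp13 held AP-1 and TATA letters, RUNX letters were found for Mmp13, Mmp14 and Mmp23, and SP1 letters were found for Mmp11, Mmp14, Timp1, Timp2 and Timp3. No promoter sequence of Mmp2 was used here. A match is a description of letters and no measurement of binding.

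The first question was whether any of these genes differs between Hyp and normal bone. Timp1 and 1 of the 2 probe sets of Mmp23 were lower in Hyp, and the other 17 tested probe sets did not pass the test. Hyp was compared with normal over both sexes by limma on log2 signals, with the series as a block and p adjusted over 27141 probe sets. The 2 calls among 19 member probe sets stand beside 2.38% called among all probe sets (1.08% higher and 1.3% lower). Log2 fold changes of Hyp over normal ran from -0.64 (Timp1) to 0.15 (Timp2, 1433662_s_at), with a median of -0.13 against 0.011 over all probe sets. They lay below 0 for 14 of the 19, while 47.55% of all probe sets lay below 0.

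**Figure D1:**
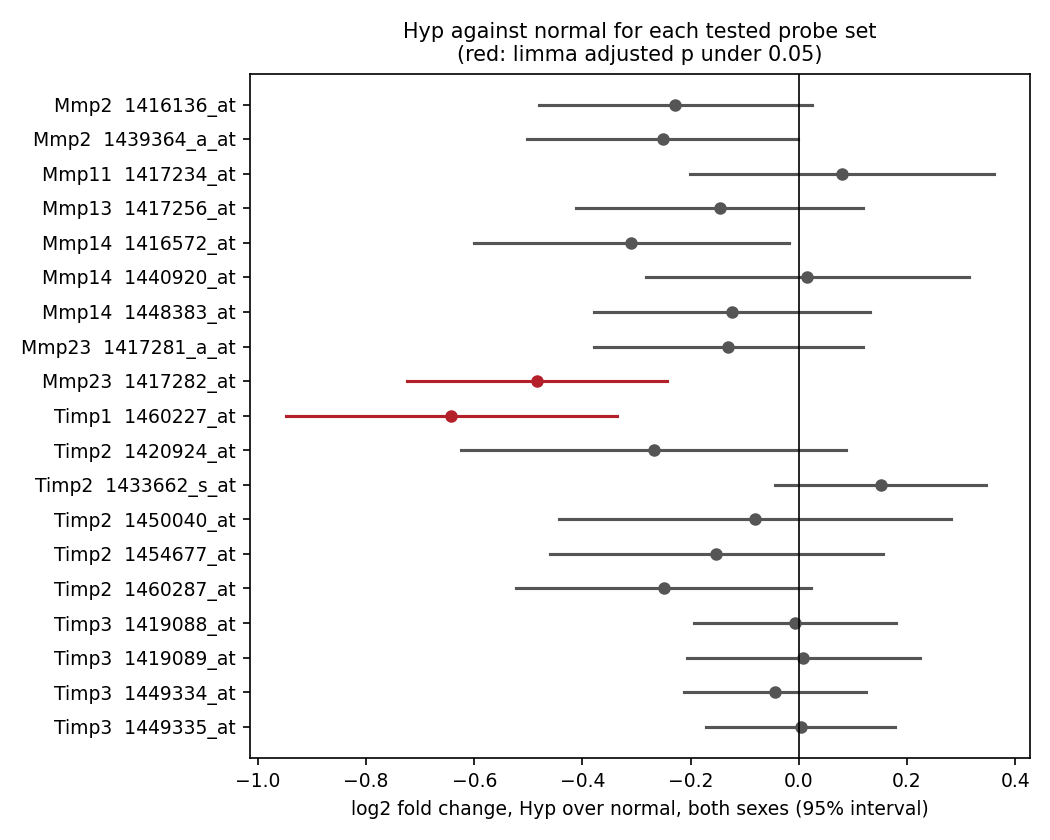
Log2 fold change of Hyp over normal for each of the 19 tested probe sets over both sexes, with 95% intervals from limma; red marks an adjusted p under 0.05. Timp1 (-0.64) and Mmp23 1417282_at (-0.48) are the called probe sets, and the 4 Timp3 probe sets lie within 0.043 of 0.

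Timp1 is a secreted inhibitor of most metalloproteinases, weak against membrane-type ones, and is also known to act on cell growth. Its signal in the normal males of series 1 to 5 was 4462, 6067, 3004, 5561 and 5664, and in the Hyp males 3116, 1773, 3671, 3624 and 3739. In normal females it was 4203, 4737, 5412, 6176 and 5119.8, and in Hyp females 2839.7, 3169.5, 3833, 3477 and 3023. Every Hyp female lay below every normal female, as was so for 1.14% of all tested probe sets. The males overlapped, with the normal male of series 3 below 4 of the 5 Hyp males; Hyp males lay wholly below normal males for 0 of 19 member probe sets and for 0.951% of all. Means were 4952 ± 1240.4 in normal males and 3185 ± 827 in Hyp males (SD, n = 5 arrays each), and 5129 ± 739.5 in normal females and 3268 ± 392 in Hyp females. Over both sexes the log2 fold change was -0.64 ± 0.14 (SE; limma adjusted p = 0.0319; 95% interval -0.95 to -0.34), a Hyp signal at 0.641 of normal, lower in 9 of 10 pairs. The authors' deposited table gave a ratio of 0.640 with an F of 22.07 for genotype.

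**Figure D2:**
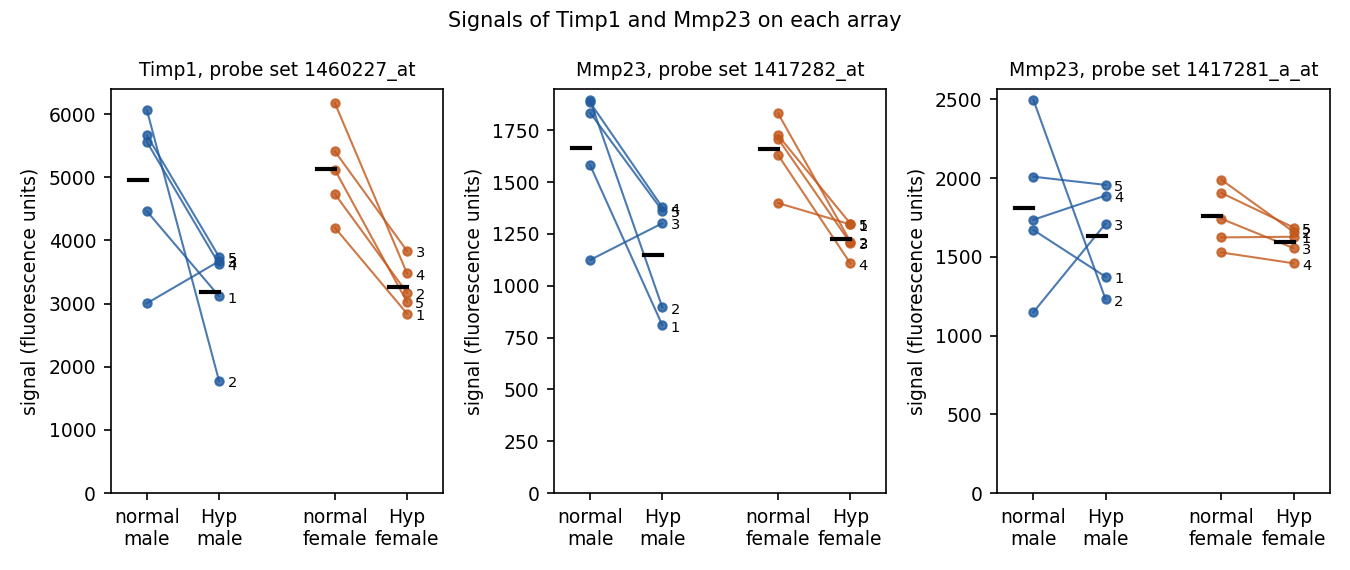
Signal (fluorescence units) of Timp1 and of the 2 Mmp23 probe sets on each of the 20 arrays; lines join the Hyp and normal array of one series, numbers are the series, and black bars are group means of 5 arrays. Timp1 falls along every line but that of male series 3, and Mmp23 1417282_at does too, while lines of 1417281_a_at run in both directions.

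The Timp1 change was -0.64 in males and -0.64 in females, and neither passed the test within its sex (limma adjusted p = 0.130 and 0.283). With an array or series left out the male change ran from -0.87 (without series 3) to -0.36 (without series 2), and without the normal male of series 3 it passed the test, at -0.86 (limma adjusted p = 0.0362). The interaction of genotype and sex was -0.0026 (limma adjusted p = 0.9995; 95% interval -0.61 to 0.61). The change was -0.86 in series 1 and 2, with 4 of 4 pairs lower, and -0.50 in series 3 to 5, with 5 of 6 lower. Neither set of series passed the test alone (limma adjusted p = 0.238 and 0.307).

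The Timp1 call did not hold under every setting: it was lost in 14 of 25 fits that left out an array or a series, in which its log2 fold change kept its sign and ran from -0.78 to -0.51. The series whose absence lost it were 1, 2, 4 and 5. The single arrays were the normal males of series 1, 2 and 4, the Hyp male of 4, the normal females of 2, 3 and 4 and the Hyp females of 1, 4 and 5, with limma adjusted p up to 0.0661. Without the normal male of series 3 its adjusted p fell to 0.00425 (limma). With the actin 3′ to 5′ ratio of each array as a covariate the change was -0.89 (limma adjusted p = 0.206), in a fit that called 1 probe set in all, and with no filter on present calls limma's adjusted p was 0.0858. The part of RNA integrity in the Timp1 value was not tested further, and the place of its probes along the transcript was not looked up.

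Mmp23 is a membrane-bound metalloproteinase without the usual cysteine switch, shed from the cell by a furin-type cleavage. Its probe set 1417282_at read 1582, 1895, 1125, 1885 and 1835 in the normal males of series 1 to 5 and 809.5, 896, 1302, 1378 and 1362 in the Hyp males. It read 1399, 1832, 1709, 1631 and 1726 in the normal females and 1296, 1214, 1207, 1109 and 1300.3 in the Hyp females. Every Hyp female lay below every normal female, as was so for 1.14% of all tested probe sets. Among the males the normal array of series 3 lay below 3 of the 5 Hyp arrays. The log2 fold change was -0.48 ± 0.11 (SE; limma adjusted p = 0.0387; 95% interval -0.72 to -0.24), lower in 9 of 10 pairs. The call was lost in 19 of 25 fits that left out an array or series, with values from -0.57 to -0.40 and limma adjusted p up to 0.175. These were the fits without series 1, 2, 4 or 5 and without any single array but the normal male of series 3, the Hyp males of 3, 4 and 5 and the Hyp female of 1. It was lost as well beside the actin ratio (-0.53, limma adjusted p = 0.315), with no filter on present calls (0.0999) and in either set of series alone (-0.68 and -0.35, limma adjusted p = 0.201 and 0.351).

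The second Mmp23 probe set, 1417281_a_at, did not pass the test, at -0.13 ± 0.12 (SE; limma adjusted p = 0.572). With an array or series left out its value ran from -0.21 (without series 3) to -0.0033 (without series 2). It ranged from 1149 to 2499 in normal males and 1230 to 1958 in Hyp males, and from 1529 to 1991 in normal females and 1459.7 to 1687 in Hyp females. Groups overlapped in both sexes. The change of 1417282_at was more negative than that of 1417281_a_at by 0.353 ± 0.192 on the log2 scale (SD), in 10 of 10 pairs (exact sign-flip test, 2-sided p = 0.00195, the smallest 10 pairs can give; 0.0053 adjusted over 19 comparisons). The probe sets of this gene therefore changed unequally, and the Mmp23 call rests on 1 of them. These 19 comparisons of changes within arrays were chosen after the members' values were seen.

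The collagenases and gelatinase did not pass the test. Mmp13 ran from 13413 to 24888 in normal and 9798 to 22604 in Hyp males, and from 17273 to 20748 in normal and 16014 to 26212 in Hyp females. Its groups overlapped in both sexes, and its log2 fold change was -0.15 ± 0.12 (SE; limma adjusted p = 0.549; 95% interval -0.41 to 0.12). The Hyp male of series 2 held the lowest Mmp13 signal of the 20 arrays and the Hyp female of series 5 the highest.

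Mmp2 was lower by -0.23 and -0.25 on the log2 scale by its 2 probe sets, in 8 and 9 of 10 pairs, with limma adjusted p of 0.296 and 0.245. Its probe set 1416136_at ran from 8676 to 20021 in normal males and 9390 to 14257 in Hyp males, and from 11540 to 15717 in normal females and 10369 to 12878 in Hyp females. The normal males held both the lowest and the highest array, those of series 3 and 2. The change was -0.53 in series 1 and 2 and -0.025 in series 3 to 5, a gap that was not tested.

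Mmp14 had 3 probe sets, at -0.31, -0.12 and 0.016 (limma adjusted p = 0.218, 0.607 and 0.966 for 1416572_at, 1448383_at and 1440920_at). The first fell more than the second by 0.186 ± 0.125 (SD), in 9 of 10 pairs (exact sign-flip test, 2-sided p = 0.00391, adjusted 0.0074). Without the normal male of series 3, Mmp14 1416572_at was called as well, at -0.43 (limma adjusted p = 0.0251), and 1448383_at was at -0.23, while without series 2 the latter was at -0.019.

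Mmp11, a stromelysin that furin activates inside the cell, was dim, between 88.1 and 263 on the 20 arrays, and its log2 fold change was 0.08 ± 0.13 (SE; limma adjusted p = 0.783). Mmp3, another stromelysin, was called present on 2 of 20 arrays, both of normal females. Its mean signals were 63.8 in normal and 63.7 in Hyp males, and 69.96 in normal and 51.6 in Hyp females, and it was not tested.

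Timp2, which both inhibits Mmp2 and helps its activation, gave different answers by probe set. Its brightest probe set, 1433662_s_at, was at 0.15 ± 0.09 (SE; limma adjusted p = 0.373) and higher in Hyp in 7 of 10 pairs. It ran from 9707 to 14448 in normal and 9818 to 15494 in Hyp males, and from 8486 to 11867 in normal and 10789 to 14513 in Hyp females. The other 4 tested probe sets lay at -0.27, -0.25, -0.15 and -0.08, and none passed the test. Set against 1433662_s_at within arrays, 3 of these 4 changed unequally (exact sign-flip tests, adjusted p = 0.0135, 0.0053 and 0.0053), and 1450040_at could not be told from it (adjusted p = 0.126). The probe sets thus do not give one direction for Timp2.

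Timp3, which binds to the matrix and also inhibits ADAMTS enzymes, had no called difference between genotypes, with 4 probe sets between -0.04 and 0.01 and 95% intervals within -0.211 and 0.225. Its signals differed by series. Probe set 1449335_at read 3484 and 3867 in the normal males of series 1 and 2 and 2523, 2326 and 1869.8 in those of series 3 to 5. The Hyp males read 3145 and 3148 against 1964, 2179.8 and 2197. The normal females read 4299.5 and 3973 against 2297, 2434 and 2204, and the Hyp females 5096 and 5344 against 2393, 2421 and 2169.

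Every array of series 1 and 2 thus lay above every array of series 3 to 5 for this probe set, as also for 1419089_at and 1449334_at, while 1419088_at overlapped. The 8 arrays exceeded the 12 by 0.55 to 0.82 on the log2 scale across the 4 probe sets. Such a separation, with series 1 and 2 higher, was found for 0.151% of all tested probe sets and for no other member, and the opposite one, with series 1 and 2 lower, for 1.64% of all. These sets of series were known from earlier results to stand apart, so the values are a description with no test. The authors' deposited table gave F values of 10.14 to 19.11 for the block term of Timp3. Between the sexes, 1449335_at was higher in females by 0.24 ± 0.08 (SE; limma adjusted p = 0.227) and did not pass the test.

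**Figure D3:**
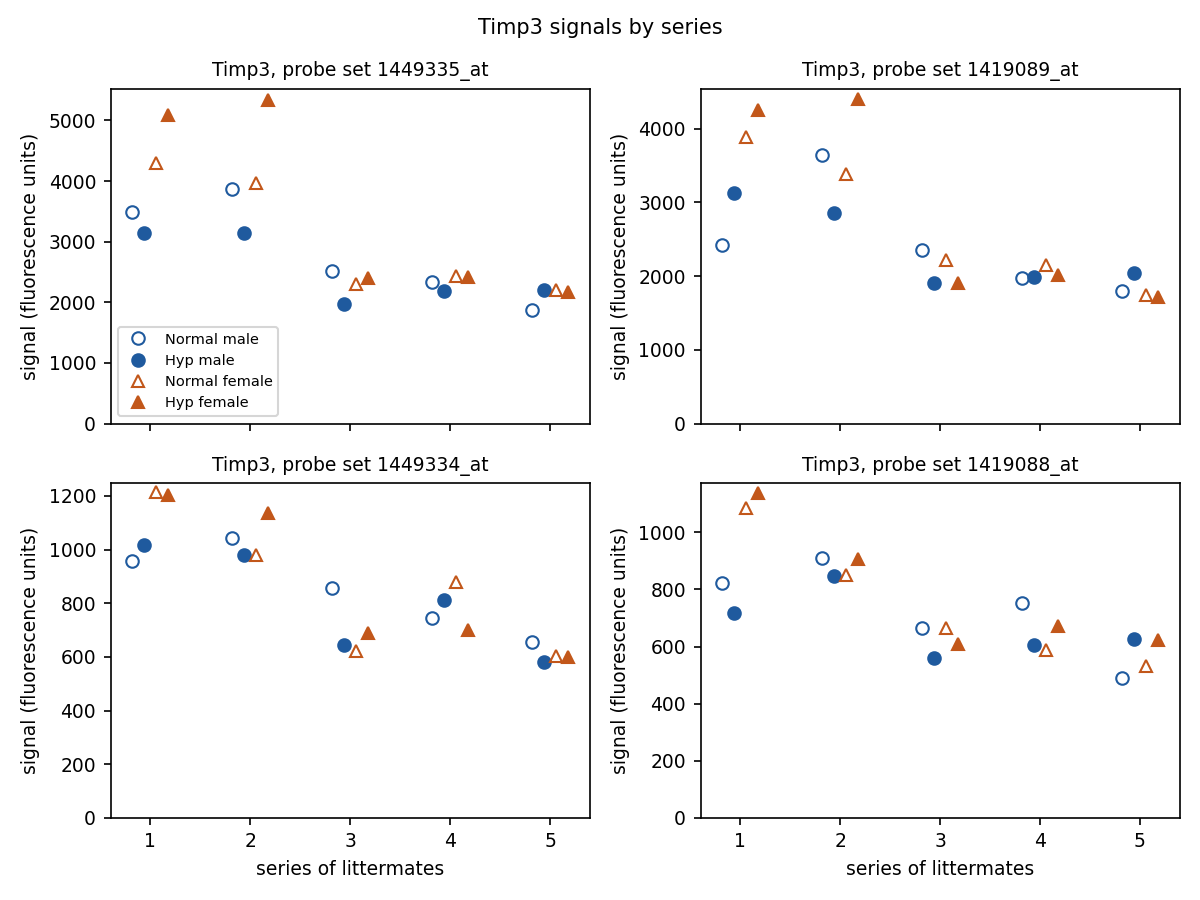
Signal (fluorescence units) of the 4 Timp3 probe sets by series of littermates; circles are males, triangles females, open symbols normal and filled symbols Hyp, 1 array per symbol. Series 1 and 2 stand above series 3 to 5 without overlap in 3 of the 4 probe sets, and open and filled symbols are mixed.

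Because Timp1 fell and the enzymes mostly did not pass the test, their changes were set against each other within the arrays, each gene by its brightest probe set. By these probe sets the change of Timp1 was more negative than that of each of 5 metalloproteinase genes. The difference was 0.414 ± 0.26 for Mmp2, 0.723 ± 0.411 for Mmp11, 0.496 ± 0.332 for Mmp13, 0.519 ± 0.184 for Mmp14 and 0.513 ± 0.205 for Mmp23 (log2 change of the enzyme gene minus that of Timp1, mean ± SD over 10 pairs). It was above 0 in 10 of 10 pairs for Mmp11, Mmp14 and Mmp23 and in 9 of 10 for Mmp2 and Mmp13. Exact sign-flip tests gave adjusted p of 0.0053 for the first 3 genes and 0.0074 for the other 2. By the called Mmp23 probe set, 1417282_at, the difference was 0.159 ± 0.316, above 0 in 6 of 10 pairs, and did not pass the test (exact sign-flip test, p = 0.178 adjusted over 30 comparisons). The other probe sets of Mmp2 (1439364_a_at) and Mmp14 gave 0.333 to 0.659 and passed it (exact sign-flip tests, adjusted p of 0.0059 to 0.0073). Since all these comparisons share the Timp1 values, they are not independent of each other. Timp1 was taken as the reference after its change was seen to be the most negative of the 19 tested probe sets. That choice favours differences in this direction, and the adjusted p-values do not account for it. A ratio within an array shows unequal change and says nothing of whether either gene was constant.

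**Figure D4:**
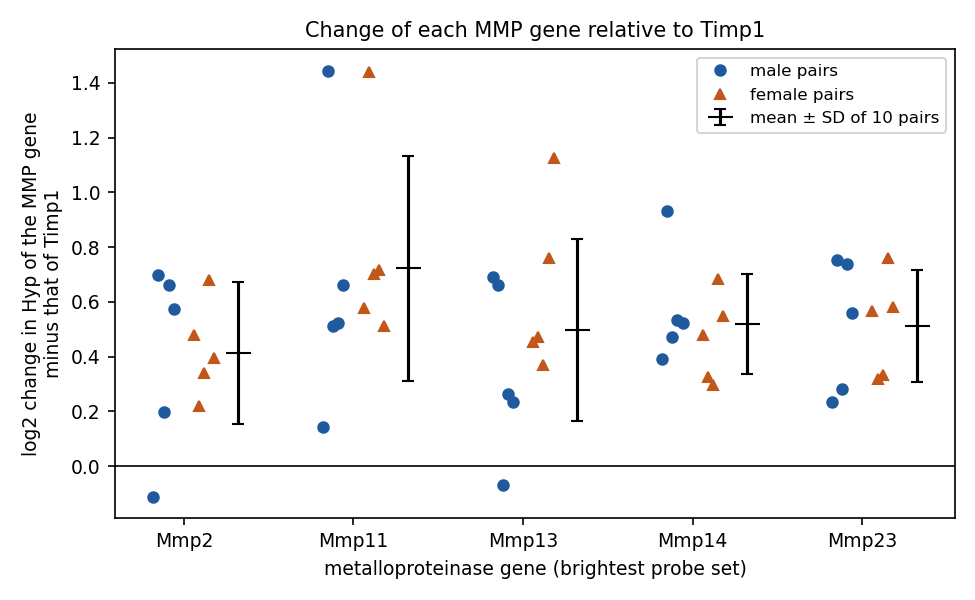
Log2 change in Hyp of each metalloproteinase gene minus the log2 change of Timp1 in the same pair of arrays; circles are 5 male pairs, triangles 5 female pairs, and the bar is the mean ± SD of 10 pairs. All points lie above 0 except 1 male pair each for Mmp2 and Mmp13.

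Timp1 also changed unequally from the other inhibitors. These comparisons too were chosen after its fall was seen, which favours a difference below 0. The change of Timp1 minus that of Timp2 1433662_s_at was -0.794 ± 0.328 on the log2 scale (SD), below 0 in 10 of 10 pairs (exact sign-flip test, adjusted p = 0.0053). That probe set gave the largest of 5 differences, and the other 4 tested for Timp2 gave -0.375 to -0.562, each below 0 in 9 or 10 of 10 pairs (exact sign-flip tests, p of 0.0059 to 0.0186 adjusted over 30 comparisons). Against Timp3 1449335_at the difference was -0.646 ± 0.545, below 0 in 9 of 10 pairs (exact sign-flip test, adjusted p = 0.0155). Without series 2, whose male pair held the largest fall of Timp1 (-1.77), that difference was -0.498 (exact sign-flip test, adjusted p = 0.053), and without series 5 it was -0.61 (adjusted p = 0.0619). The difference of Timp2 1433662_s_at and Timp3 1449335_at did not pass the test, at 0.148 ± 0.321 (exact sign-flip test, adjusted p = 0.238), but passed it without series 2, at 0.237 (adjusted p = 0.0495).

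The members moved together in some pairs. In the male pair of series 2 all 19 tested probe sets were lower in Hyp, with a median of -1.04, and in the male pair of series 3 15 of 19 were higher, with a median of 0.487. Medians in the other 8 pairs ran from -0.24 to 0.004, and medians over all 27141 probe sets lay between -0.017 and 0.043 in every pair. Timp3 went against the rest in the male pair of series 3, with all 4 probe sets lower. Markers of other cells moved in these pairs too. In the male pair of series 2 the summed signal of the 4 osteocyte markers other than Phex differed by -1.88 on the log2 scale, that of 7 osteoclast markers by -0.98, that of 7 fibrous tissue markers by -0.47 and that of 5 neutrophil markers by 1.12. In that of series 3 the same sums differed by -0.54, 0.22, 0.30 and 0.059. Sums of the other marker lists ran from -0.41 (cartilage) to 0.59 (adipocyte) in the male pair of series 2. In that of series 3 they ran from -0.30 (adipocyte) to 0.62 (endothelial). The part of cell makeup in the members' values was not tested.

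**Figure D5:**
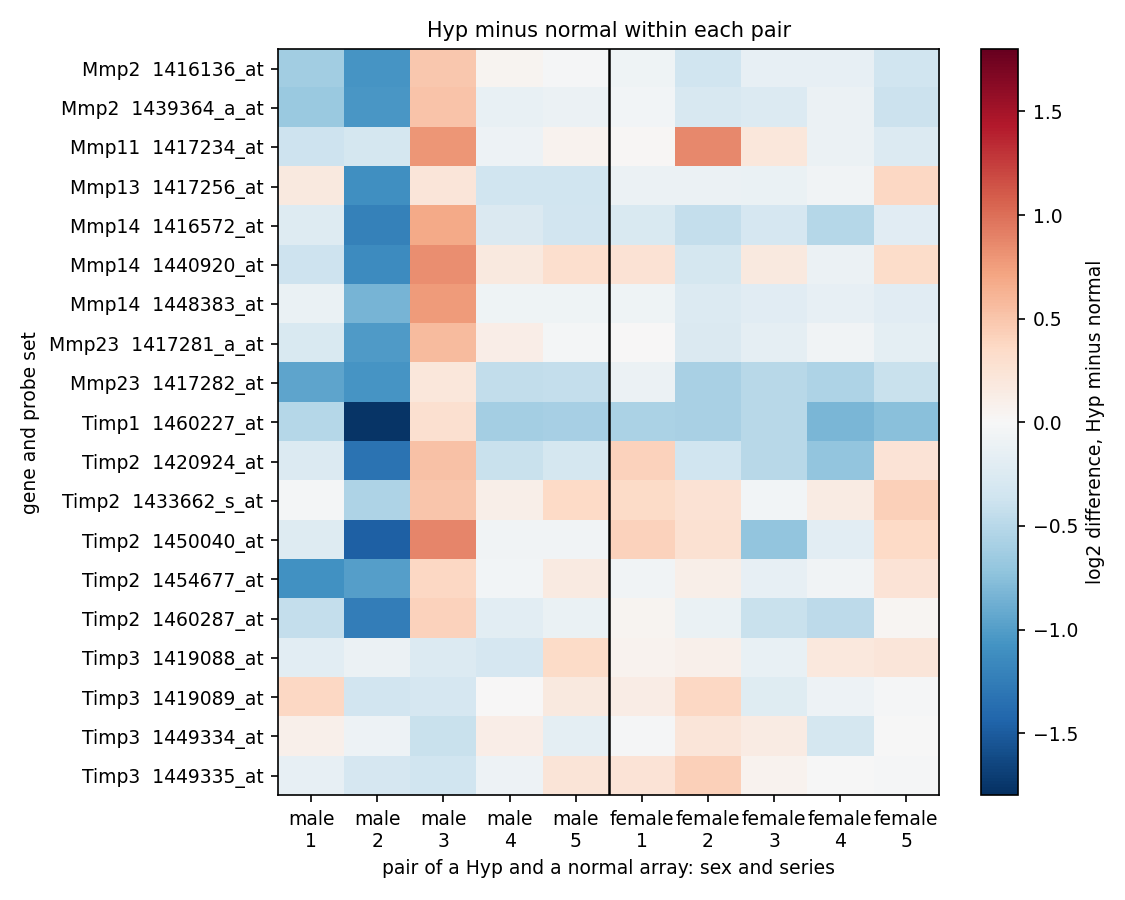
Log2 difference, Hyp minus normal, of the 19 tested probe sets (rows) in the 10 pairs of arrays (columns, by sex and series); blue is lower and red higher in Hyp. The male pair of series 2 is blue throughout, that of series 3 is mostly red, and the Timp1 row is blue in 9 of 10 pairs.

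Of the marker lists, the osteocyte and the endothelial ones held more than 1 gene that passed the test. The osteocyte list includes Phex, the gene the Hyp mutation deletes in part. The other 4 osteocyte markers, of which Sost, Dmp1 and Pdpn fell, summed to 19337 to 27689 in normal and 7512 to 18031 in Hyp males, and to 20190.0 to 23762 in normal and 9215 to 17306 in Hyp females, lower in 10 of 10 pairs. The 5 endothelial markers, of which Pecam1 (0.52) and Flt1 (0.46, both log2 fold changes that passed the test) rose, summed to 4903 to 6906 in normal and 7557 to 9941 in Hyp males, and to 5246 to 7749 in normal and 6786 to 9463 in Hyp females. No marker on these 2 lists was undetected. Cartilage markers Col10a1 and Matn1 were too rarely called present to be tested, and 0 of the other 5 cartilage markers passed the test. Among 7 fibrous tissue, 5 muscle, 5 neutrophil, 4 macrophage and 2 adipocyte markers tested, 0 passed the test. The 7 osteoclast markers, of which 0 passed, lay below 0 for 6 with a median of -0.29, and their sum was lower in 8 of 10 pairs. The fibrous tissue and adipocyte sums were higher in 8 of 10 pairs each, but 4 of the 7 fibrous tissue markers lay below 0, with a median of -0.078. Whether the fall of Timp1 goes with that of the osteocyte markers was not tested.

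Within a sex, 0 of the 19 member probe sets passed the test in males and 0 in females (limma). Over all probe sets 0.0995% passed in males and 0.00368% in females. The members lay below 0 for 17 of 19 in males and 10 of 19 in females, while 48.38% and 46.59% of all probe sets did. For the interaction of genotype and sex 0 passed (0.00368% of all probe sets). Between the sexes 0 passed (0.133% of all).

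The other genes of this proteolytic system were taken from lists. Of 15 other metalloproteinase genes listed, 6 were tested and 1 passed the test: Mmp16, a membrane-type enzyme, was lower by 0.59 ± 0.13 on the log2 scale (SE; limma adjusted p = 0.0264) and in 9 of 10 pairs. All 6 lay below 0, with a median of -0.14. None of 7 genes of other inhibitors and of clearance, 3 of precursor activation, 8 ADAMTS enzymes, 7 collagenase substrates or 6 factors of the AP-1 family, which act on the Mmp13 promoter, passed the test. Their median log2 fold changes were -0.13, -0.06, -0.05, 0.13 and -0.06. With 3 of 7 below 0, the substrate genes (collagens, aggrecan and fibronectin) were the only one of these 6 lists with a median above 0.

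Each member, by its brightest probe set, was also correlated with all named genes over the 20 arrays after each series mean was subtracted. These values describe arrays that share pools, scaling and the pair differences above. For Timp1 the 3 nearest genes were Gpr153 (Pearson r = 0.966), Gpr180 (0.948) and Cthrc1 (0.945), of which Cthrc1 was itself lower in Hyp by 0.65 (limma adjusted p = 0.0375) and Gpr180 by 0.40 (limma adjusted p = 0.0434). Mmp2 and Mmp23, the latter by its uncalled probe set 1417281_a_at, named each other (r = 0.945) and both named Col5a1 and Mxra8. For Mmp14 they were Sytl2 (0.935), Col5a1 (0.912) and Grb10 (0.908), for Mmp13 Fabp7 (0.867), Ctsk (0.855) and Dcstamp (0.839), and for Timp2 Postn (0.901), Trim2 (0.894) and Cnn3 (0.876). Timp3 was nearest A830010M20Rik (0.891), Dnaja3 (0.867) and Dcaf11 (0.860), and Mmp11 was nearest Thra (0.795), Trio (0.794) and Enpp3 (0.773). Among the members, Timp1 correlated with Mmp2 at 0.776, Mmp23 1417281_a_at at 0.743, Mmp14 at 0.723, Mmp13 at 0.688 and Mmp11 at 0.25. With Timp2 1433662_s_at the value was 0.049 and with Timp3 1449335_at 0.043. Correlations of Timp1 with the other Timp2 probe sets, some of which changed unequally from 1433662_s_at, were not computed.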

How the data were processed

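RNA of 20 pools was hybridised to Affymetrix mouse arrays. The authors deposited a signal intensity per probe set, in linear fluorescence units per the file headers, made with GCOS per the submitters' processing notes, together with detection calls. The mean signal, trimmed by 2% at each end, was 500 on every array. Their table also holds a ratio of Hyp to normal means and a score, the F statistic, for genotype, sex, interaction and block in an analysis of variance, with P classes, per the file headers. The F values of genotype, recomputed for 19 member probe sets, differed by at most 0.00026 in relative terms. Those of sex, interaction and block were not recomputed.

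Probe sets were named through the array's gene table (34958 carry 1 symbol, 932 several and 9211 none), with symbols checked against RefSeq GRCm38.p6. Signals were used as log2 of signal plus a pseudocount of 16, so folds of dim probe sets are understated. Control probe sets (64) and those called present on fewer than 5 of 20 arrays were left out. One model of 4 groups and 5 series was fitted to 27141 probe sets with limma 3.58.1 under R 4.3.3 (12 residual and 3.44 prior degrees of freedom), with 2-sided p adjusted by Benjamini and Hochberg and a threshold of 0.05. The median SE over both sexes was 0.115. The fit was tested on simulated data. Comparisons within arrays used exact sign-flip tests over 10 pairs (1024 flips), adjusted over 19, and over 30 with 11 other probe sets of the members added.

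The block comes from the labels, which match each replicate for littermates and processing. Arrays of one series in different groups correlated in their deviations from group means at a median of 0.215 (-0.03 to 0.418, 30 array pairs, across probe sets), against -0.07 (-0.434 to 0.357) for 120 other array pairs. The ranges overlapped. With group means subtracted, a higher value within series lowers that between series, so the medians are not independent of each other. Each pool was a separate pair of mice. The members and gene lists were chosen with earlier results of these data known. The text reports every member gene, listed genes that passed the test, and the 3 genes of highest correlation with each tested member. Listed genes without a named probe set were not used here.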

Additional observations from a re-analysis of the deposited data

Results flagged for a closer look

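Among 76 checks of single arrays against the other 4 of their group, 2 stood apart, and chance alone would flag about 1 in 20. The Timp1 signal of the Hyp male of series 2 was 1772.6, while the other 4 Hyp males lay between 3116 and 3739. The signal of Timp2 1433662_s_at in the normal female of series 1 was 8485.5, while the other 4 normal females lay between 10792 and 11867. Without that Hyp male the Timp1 change was -0.54 and was still called (limma adjusted p = 0.0412).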

How the results depend on the processing

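The 2 calls over both sexes became 0 with no filter on present calls, with the replicate block joined by the actin ratio as a covariate, and in series 1 and 2 or series 3 to 5 alone. Counts over all probe sets went from 647 to 148, 1, 0 and 1 under these settings and to 317 with no replicate block. Leaving out an array or series gave 0 to 3 member calls and 20 to 1343 over all probe sets. Within males it gave 0 to 2, the 2 without the normal male of series 3. Timp1 and Mmp23 1417282_at kept their sign in all fits. They were called under 7 of 11 other settings each (pseudocount, stricter filter, quantile normalization, analysis of variance, and with no replicate block at adjusted p = 0.0368 and 0.0444). Without the filter, limma's adjusted p was 0.0858 and 0.0999. Beside the actin ratio, Mmp23 1417282_at was at -0.53 (adjusted p = 0.315). Alone, series 1 and 2 gave it -0.68 (0.201) and series 3 to 5 -0.35 (0.351). The causes were not tested.

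Signs turned for values that were never called. With the actin ratio Mmp11 went to -0.024, Mmp14 1440920_at to -0.061, Timp2 1420924_at to 0.030, Timp3 1419088_at to 0.15 and 1449334_at to 0.11. In series 1 and 2 Mmp14 1440920_at was at -0.39 and Timp3 1449334_at at 0.050. In series 3 to 5 Mmp14 1448383_at was at 0.0094, Mmp23 1417281_a_at at 0.042, Timp2 1450040_at at 0.034 and 1454677_at at 0.086, and Timp3 1419088_at, 1419089_at and 1449335_at at 0.012, -0.073 and -0.032. The analysis of variance put Mmp14 1440920_at at -0.00055. With an array or series left out, ranges crossing 0 were -0.025 to 0.15 (Mmp11), -0.11 to 0.20 (Mmp14 1440920_at), -0.19 to 0.049 (Timp2 1450040_at), and for Timp3 -0.078 to 0.038 (1419088_at), -0.059 to 0.076 (1419089_at), -0.080 to 0.00023 (1449334_at) and -0.037 to 0.042 (1449335_at). The interaction ran from -0.30 to 0.21 for Timp1 and from -0.077 to 0.31 for Mmp23 1417282_at.

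Alternatives for the 19 within-array comparisons and the 11 comparisons of Timp1 with other probe sets were chosen after seeing the data. In the 5 pairs of a sex no p under 0.05 can be reached, and each called difference kept its sign in both sexes. Turned signs were 0.033 (Timp3 1419088_at) and 0.044 (1449334_at) against 1449335_at in males, and in females 0.0052 (Mmp2) and -0.10 (Timp3 1419089_at). With a series left out these 2 Timp3 differences ran from -0.056 to 0.015 (1419088_at) and from -0.044 to 0.034 (1419089_at). Without series 5 the Timp2 1420924_at difference was at adjusted p = 0.054.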
